A study of Homo sapiens with 6 samples.

Results

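The giant atypical cadherins FAT1, FAT2, FAT3, FAT4, DCHS1, CELSR1, CELSR2 and CELSR3, with the kinase gene FJX1, were followed in HCT116 cells that overexpressed SETD8. They were chosen by name as rows of the count table whose Ensembl IDs map to these symbols in GENCODE 29, which gave 9 genes of 58735. HCT116 is an established human colorectal carcinoma line. The groups were 3 libraries of cells with a lentiviral SETD8 overexpression plasmid (replicates 1 to 3) and 3 libraries of cells with the empty lentiviral Vector and a genotype given as WT (replicates 1 to 3). Both groups were selected with puromycin as stable clones, per one label, while the design text speaks of transfection. How many clones stand behind a library is not stated, and nothing says that replicates were separate cultures, so a p-value reflects the spread among these libraries alone, which may be technical.

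In Drosophila, the cadherins Fat and Dachsous bind each other across cell borders, and the Golgi kinase Four-jointed phosphorylates their extracellular repeats and tunes that binding. Fat signalling there restrains Yorkie, the fly counterpart of YAP, through the Hippo pathway, and orients cells within the tissue plane. FAT4 and DCHS1 form the corresponding receptor and ligand pair in mice, FAT1 reaches the actin cytoskeleton through Ena/VASP proteins, and FJX1 is the mammalian counterpart of Four-jointed. The CELSR proteins, counterparts of fly Flamingo, join cadherin repeats to a multi-pass receptor domain and form homophilic bridges in the core planar polarity complex with Frizzled and VANGL proteins. The title of the series concerns methylation and degradation of the YAP protein by SETD8.

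Libraries held 17056672 to 20471843 counts. On the leading principal component (46.4% of the variance in log2 CPM) the SETD8 libraries lay together at -23.8 to -16.5. Vector replicate 1 (-0.94) stood nearer to them than Vector replicates 2 and 3 did (25.7 and 39.3). KMT5A, the gene of SETD8, had 65.4, 66.2 and 75.5 CPM (TMM-normalised counts scaled to a common library size) in SETD8 replicates 1, 2 and 3, against 46.0, 47.3 and 53.9 CPM in Vector replicates 1, 2 and 3 (log2 fold change 0.49, edgeR adjusted p = 0.0156). With Vector replicate 2 left out, that p was 0.0965, and with SETD8 replicate 1, 2 or 3 left out it was 0.0661, 0.0579 or 0.0949. The epithelial markers EPCAM, CDH1, KRT8, KRT18 and KRT19 were expressed, while the intestinal markers CDX1, VIL1 and LGALS4 were at or near 0. CDH1, the classical epithelial cadherin, had 76.5, 86.8 and 78.7 CPM in SETD8 replicates 1, 2 and 3, against 92.5, 129.9 and 129.4 CPM in Vector replicates 1, 2 and 3, and it fell (log2 fold change -0.54, edgeR adjusted p = 0.0218). Marker sums were 3.50 to 4.83 CPM in SETD8 and 4.80 to 7.20 CPM in Vector libraries for fibroblasts (6 genes, COL1A2 and DCN at 0). They were 0.104 to 0.233 and 0.273 to 0.948 CPM for immune cells (4 genes, PTPRC and CD3E at 0), 1.11 to 1.80 and 1.2 to 2.25 CPM for endothelium (4 genes, KDR at 0) and 19.9 to 24.1 and 16.3 to 21.8 CPM for neurons (4 genes, mostly MAP2, with RBFOX3 at 0 in the SETD8 libraries). Their part in the results on the cadherins was not tested. In bulk RNA, fewer cells of a type and less RNA per cell cannot be told apart.

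HCT116 cells expressed FAT1, all 3 CELSR genes and FJX1, while FAT2, FAT4 and DCHS1 were low (0.106 to 5.65 CPM) and FAT3 had 0 counts in every library. Of the 9 genes, 8 passed the low-count filter and 7 had a mean of at least 1 CPM. A count of 3 stood at 0.15 to 0.17 CPM, which is the limit that the 0 counts of FAT3 allow in a library, for counting error only. Levels of different genes were compared per kilobase of exons. FAT1 stood at 117.4 ± 11.6 CPM per kilobase in SETD8 libraries and 145.5 ± 35.6 in Vector libraries (SD, n = 3 each), higher than 98.0% of tested genes. FJX1 followed at 16.5 ± 1.28 and 15.9 ± 0.44 CPM per kilobase. CELSR1 had 4.2 ± 0.16 and 6.44 ± 1.35, CELSR2 3.06 ± 0.085 and 3.79 ± 0.31, and CELSR3 0.944 ± 0.084 and 1.69 ± 0.32 CPM per kilobase. FAT2 (0.180 ± 0.016 in SETD8 and 0.268 ± 0.107 in Vector libraries), FAT4 (0.0978 ± 0.0029 and 0.144 ± 0.018) and DCHS1 (0.0171 ± 0.0089 and 0.111 ± 0.050) were the lowest of those detected. The order was the same in both groups, and the ranges of neighbours overlapped only for FAT4 and DCHS1 in the Vector libraries. FAT1 alone supplied 93.1% to 94.9% of the counts of the 8 cadherins in each library.

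**Figure D1:**
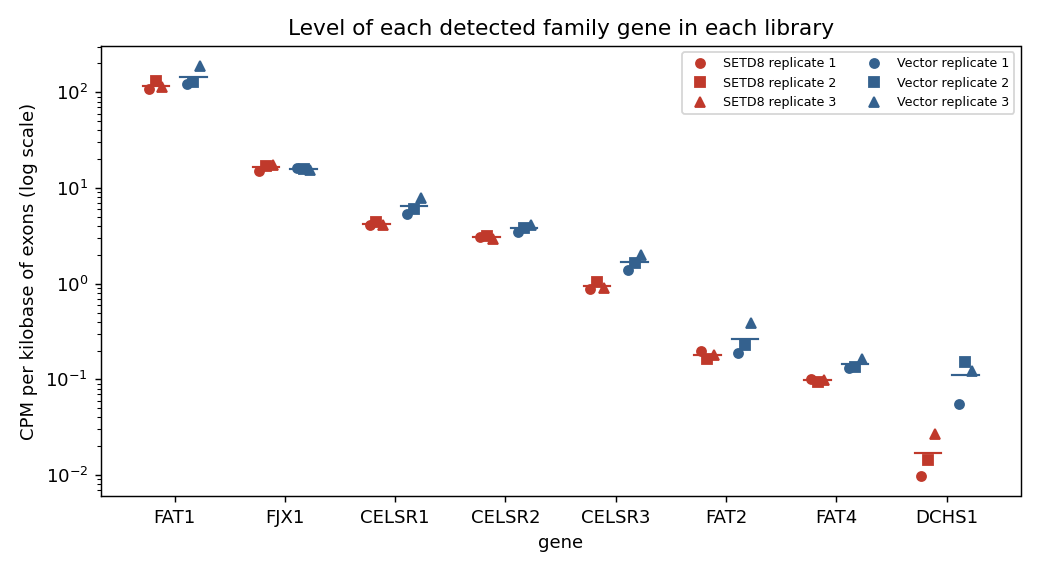
Level of each detected gene in CPM per kilobase of exons (log scale), by library, with a bar at each group mean. FAT1 lies at 109 to 187, the CELSR genes at 0.886 to 7.95 and DCHS1 at 0.00984 to 0.153.

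Promoter windows of 250 bases were available from RefSeq (GRCh38.p14) for 5 of the 9 genes, with 2 windows for FAT1. The windows of CELSR3 and CELSR2 are shown because one of these related genes passed the edgeR test and the other did not, and that of FAT1 because FAT1 is by far the most abundant cadherin of the family. They read 5′ to 3′ on the gene's strand (minus for CELSR3 and FAT1, plus for CELSR2), and capitals mark CpG dinucleotides.
CELSR3 chr3:48662887-48663136: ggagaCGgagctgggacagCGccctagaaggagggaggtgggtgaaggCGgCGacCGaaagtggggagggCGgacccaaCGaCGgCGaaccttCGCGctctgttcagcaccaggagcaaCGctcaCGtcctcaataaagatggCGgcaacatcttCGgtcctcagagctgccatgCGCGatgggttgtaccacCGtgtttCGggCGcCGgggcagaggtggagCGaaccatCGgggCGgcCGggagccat
CELSR2 chr1:109249289-109249538: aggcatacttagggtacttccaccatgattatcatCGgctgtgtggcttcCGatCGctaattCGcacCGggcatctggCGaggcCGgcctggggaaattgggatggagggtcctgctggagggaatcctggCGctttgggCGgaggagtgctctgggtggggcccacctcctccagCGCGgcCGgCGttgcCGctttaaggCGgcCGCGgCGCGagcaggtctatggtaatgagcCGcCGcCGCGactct
FAT1 chr4:186726697-186726946: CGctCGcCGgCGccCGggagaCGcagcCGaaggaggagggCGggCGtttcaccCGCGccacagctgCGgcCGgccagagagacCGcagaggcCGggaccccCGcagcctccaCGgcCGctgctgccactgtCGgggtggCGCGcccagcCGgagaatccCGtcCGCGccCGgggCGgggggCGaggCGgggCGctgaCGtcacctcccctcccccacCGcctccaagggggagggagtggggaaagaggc
The windows held 25 CpG dinucleotides for CELSR3, 23 for CELSR2 and 32 for FAT1, against a median of 11 over 35116 windows. The FJX1 window held 22, while that of FAT2 held 4. The RefSeq start behind the FAT2 window lies 22387 bases from the GENCODE 29 start of the gene, so that window is not at the start position given here. For the CELSR2 window this distance is 480 bases, so it does not adjoin the given start either. It is 29 bases for CELSR3 and 26 for the FAT1 window shown. The 6-base motif GGAATG, which TEAD factors bind, was searched on both strands as GGAATG or CATTCC and was in 0 of the 6 windows of the family and in 11.9% of all windows. No match says only that these letters are not in these windows. The second FAT1 window lies downstream of the one shown, and gene counts do not tell the starts apart.

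Of the 8 tested genes, DCHS1, CELSR1 and CELSR3 fell in SETD8 libraries, and 0 rose. Over all 14370 tested genes, 7.83% were called by edgeR (adjusted p under 0.05), 4.75% lower and 3.08% higher (682 and 443, or 505 and 792 when scaled by library totals). The median log2 fold change of the 8 genes was -0.56, against 0.00 over all tested genes, and 7 of the 8 were below 0. DCHS1 passed the low-count filter only through its Vector libraries, so it could only enter the test as lower in SETD8. Among the 7 genes that passed through both groups, 2 were called and the median was -0.55. SETD8 libraries all lay below Vector libraries for 5 of the 8 genes, as they did for 15.9% of all tested genes. These were FAT4, CELSR1, CELSR2, CELSR3 and DCHS1, and for DCHS1 the filter fixed this outcome.

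**Figure D2:**
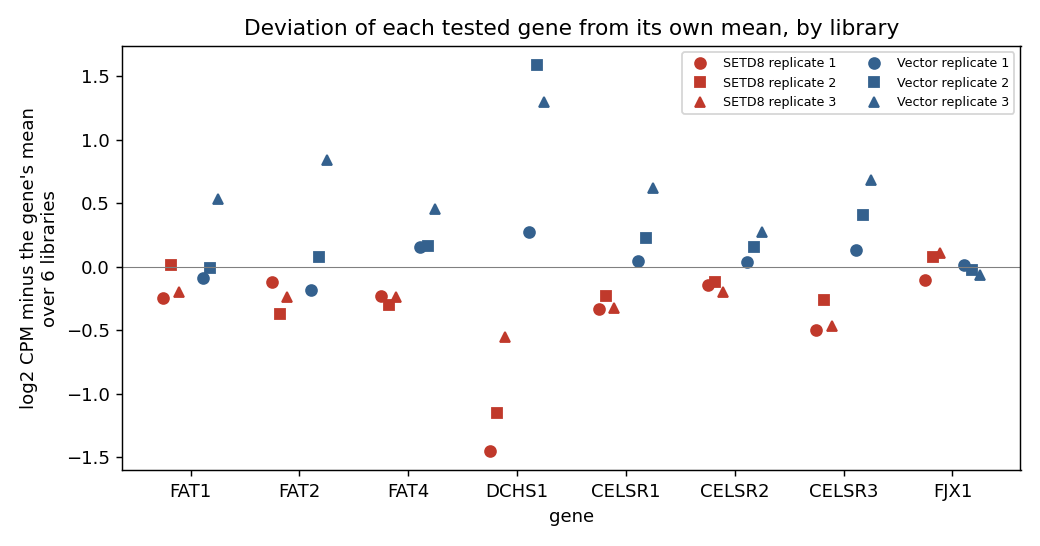
Log2 CPM of each tested gene minus its own mean over the 6 libraries, by library. SETD8 libraries lie below all Vector libraries for FAT4, the 3 CELSR genes and DCHS1, for which the low-count filter fixed this. Vector replicate 3 is the highest library for FAT1, FAT2, FAT4 and the CELSR genes.

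FAT1, the giant cadherin that dominates this family in HCT116, did not pass the test. It lies on the minus strand of chromosome 4 from 186587783 to 186726722 of GRCh38 (ENSG00000083857) and its longest annotated transcript has 27 exons and 14786 bases. FAT1 had 1765, 2112 and 1819 CPM in SETD8 replicates 1, 2 and 3, against 1968, 2077 and 3017 CPM in Vector replicates 1, 2 and 3. SETD8 replicate 2 lay above Vector replicates 1 and 2, so the groups overlapped, and Vector replicate 3 stood far above the other 5 libraries. The log2 fold change of -0.31 had an SE of 0.15 and a 95% interval of -0.63 to 0.01, for an edgeR adjusted p of 0.202. Without Vector replicate 1 it was -0.43 (edgeR adjusted p = 0.0241), and without Vector replicate 3 it was -0.09 (edgeR adjusted p = 0.591).

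FAT2, a FAT1 paralog, was expressed at a few CPM and did not pass. It lies on chromosome 5 from 151504093 to 151568944 (minus strand). SETD8 replicates 1, 2 and 3 had 2.86, 2.38 and 2.62 CPM and Vector replicates 1, 2 and 3 had 2.73, 3.29 and 5.65 CPM. The groups overlapped through Vector replicate 1, and Vector replicate 3 was highest. The log2 fold change of -0.56 had an SE of 0.29 and a 95% interval of -1.18 to 0.05, for an edgeR adjusted p of 0.230. It was -0.76 with an edgeR adjusted p of 0.048 without Vector replicate 1, and -0.20 with 0.744 without Vector replicate 3. An antisense gene, AC011337.1, covers 4.10% of the exonic bases of FAT2 and had at most 1 count in a library, and because the strand setting of the counting is unknown the reads of the pair cannot be told apart.

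FAT4 and DCHS1, the receptor and ligand pair, were both low in HCT116, and DCHS1 was called lower in a direction that the low-count filter fixed. FAT4 lies on chromosome 4 from 125316399 to 125492932 (plus strand). It had 1.64, 1.55 and 1.63 CPM in SETD8 replicates 1, 2 and 3, against 2.18, 2.20 and 2.71 CPM in Vector replicates 1, 2 and 3. The groups did not overlap, but the log2 fold change of -0.55 (SE 0.28, 95% interval -1.15 to 0.05) did not pass (edgeR adjusted p = 0.227). It stood on 28 to 31 counts in each SETD8 library and 40 to 47 in each Vector library.

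DCHS1 lies on chromosome 11 from 6621323 to 6655854 (minus strand, ENSG00000166341). It had 2, 3 and 5 counts in SETD8 replicates 1, 2 and 3, against 11, 33 and 23 counts in Vector replicates 1, 2 and 3. In CPM these were 0.106, 0.155 and 0.291 in SETD8 libraries, against 0.600, 1.65 and 1.33 in Vector libraries. DCHS1 passed the low-count filter only through its Vector libraries, so the lower direction and the lack of overlap were fixed before the test. Vector replicate 1 was the Vector library nearest to the SETD8 libraries. The fitted log2 fold change of -2.68 (SE 0.58, 95% interval -3.93 to -1.42) had an edgeR adjusted p of 0.0189 and depends on the prior count at these levels. The summed counts, 10 in SETD8 and 67 in Vector libraries, gave an exact Poisson ratio of 0.150 (95% interval 0.0689 to 0.294, counting error only). The edgeR adjusted p was 0.116 when Vector replicate 2 was left out and 0.106, 0.0861 and 0.067 when SETD8 replicates 1, 2 and 3 were, which ended the call each time. The log2 fold change in these 4 settings was -3.13 to -2.35. The antisense genes AC091564.4 and AC091564.5 cover 7.62% and 1.75% of the exonic bases of DCHS1 and had 0 counts in each library, and the strand limit holds here too.

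FAT3, a further FAT paralog on chromosome 11 (92352096 to 92896470, plus strand), had 0 counts in every SETD8 and every Vector library and was not tested.

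The CELSR genes had 216 to 1767 counts in each library, and CELSR1 and CELSR3 fell. CELSR1 lies on chromosome 22 from 46360834 to 46537170 (minus strand, ENSG00000075275). It had 52.4, 56.3 and 52.8 CPM in SETD8 replicates 1, 2 and 3, against 68.4, 77.3 and 101.8 CPM in Vector replicates 1, 2 and 3. The groups did not overlap, with Vector replicate 1 the nearest to the SETD8 libraries. Means were 53.8 ± 2.11 and 82.5 ± 17.3 CPM in SETD8 and Vector libraries (SD, n = 3 each; log2 fold change -0.61 (SE 0.13), 95% interval -0.89 to -0.34, edgeR adjusted p = 0.0161). Leaving out Vector replicate 2 ended the call, at an edgeR adjusted p of 0.0758, as did leaving out SETD8 replicates 1, 2 and 3, at 0.0953, 0.0665 and 0.0894. The log2 fold change in these 4 settings was -0.65 to -0.59.

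CELSR3 had the lowest adjusted p of the family. It lies on chromosome 3 from 48636469 to 48662915 (minus strand, ENSG00000008300). SETD8 replicates 1, 2 and 3 had 12.3, 14.4 and 12.6 CPM, and Vector replicates 1, 2 and 3 had 19.1, 23.1 and 28.0 CPM. No SETD8 library reached the lowest Vector library, which was replicate 1. Means were 13.1 ± 1.17 and 23.4 ± 4.47 CPM in SETD8 and Vector libraries (SD, n = 3 each), a 1.78-fold fall (log2 fold change -0.83, SE 0.15, 95% interval -1.16 to -0.51, edgeR adjusted p = 0.00861). Its edgeR adjusted p missed the threshold when Vector replicate 2 (0.0637), SETD8 replicate 1 (0.0661) or SETD8 replicate 3 (0.0632) was left out, with log2 fold changes of -0.83, -0.79 and -0.80. The microRNA gene MIR4793 overlaps 0.469% of the exonic bases of CELSR3 and had 0 counts.

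CELSR2 lies on chromosome 1 from 109250019 to 109275750 (plus strand) and did not pass. It had 37.9, 38.7 and 36.6 CPM in SETD8 replicates 1, 2 and 3, against 43.0, 46.7 and 50.7 CPM in Vector replicates 1, 2 and 3. The groups did not overlap, and the log2 fold change of -0.31 (SE 0.10) had a 95% interval of -0.52 to -0.10, for an edgeR adjusted p of 0.0714. Without Vector replicate 1 it was -0.37 (edgeR adjusted p = 0.0111). With any other single library left out CELSR2 did not pass, at edgeR adjusted p values of 0.148 to 0.234.

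The proportions of the CELSR genes among themselves were set side by side in a comparison chosen after the values were seen. Counts of CELSR3 for each count of CELSR2 were 0.324, 0.373 and 0.343 in SETD8 replicates 1, 2 and 3, against 0.444, 0.494 and 0.553 in Vector replicates 1, 2 and 3. The ratio of CELSR1 to CELSR2 was 1.43 ± 0.039 in SETD8 and 1.75 ± 0.23 in Vector libraries, and that of CELSR3 to CELSR1 was 0.243 ± 0.012 and 0.284 ± 0.012 (SD, n = 3 each). The groups did not overlap in any of these 3 ratios. Each gave a two-sided exact permutation p of 0.1, the smallest that 3 against 3 allows (0.133 adjusted over 4 ratios, the other being FAT1 to FJX1 with an exact permutation p of 0.2). These ratios do not depend on how libraries are scaled. CELSR3 to CELSR1 is the quotient of the other 2 CELSR ratios, so they are not 3 separate results. How often ratios of other gene pairs separate the groups was not counted. Of all tested genes taken singly, 30.3% had groups that did not overlap, lower and higher together.

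FJX1, the one member that is no cadherin, showed no detectable difference. It is a gene of 1 exon on chromosome 11 from 35618419 to 35620868 (plus strand, ENSG00000179431). It had 36.8, 41.7 and 42.6 CPM in SETD8 replicates 1, 2 and 3, against 39.9, 38.9 and 37.7 CPM in Vector replicates 1, 2 and 3. The groups overlapped, and the log2 fold change of 0.05 (SE 0.10) had a 95% interval of -0.16 to 0.27, for an edgeR adjusted p of 0.769. With length correction its sign turned (-0.08, edgeR adjusted p = 0.663).

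The 7 tested cadherins have exonic lengths of 10765 to 16439 bases, and long genes were called lower more often than short ones over the whole table. Among 1584 tested genes of 10000 bases or more, 10.3% were called lower and 0.821% higher, and their median log2 fold change was -0.16. Among 2036 genes under 2000 bases, 1.33% were called lower and 5.60% higher, with a median of 0.18. All genes under 2000 bases, tested or not, held 13.9%, 14.1% and 13.9% of the counts in SETD8 replicates 1, 2 and 3. In Vector replicates 1, 2 and 3 they held 14.3%, 13.6% and 14.1%, so the groups overlapped in that share. FJX1 has 2450 exonic bases. Other genes of 10000 bases or more held 8.83%, 9.06% and 8.90% of the counts in SETD8 replicates 1, 2 and 3, against 9.16%, 9.60% and 10.9% in Vector replicates 1, 2 and 3 (two-sided exact permutation p = 0.1, the smallest possible). SETD8 libraries all lay below Vector libraries in this share of long genes, as for the CELSR genes. Among those long genes, 3.35% had a lower log2 fold change than CELSR3, 7.39% than CELSR1, 0.0631% than DCHS1 and 28.9% than FAT1 or CELSR2.

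When each library's trend with length was removed, CELSR1 and CELSR3 were still called lower, with smaller fold changes. DCHS1 was called lower too, but the low-count filter had fixed its direction. The log2 fold changes were -0.65 for CELSR3 (edgeR adjusted p = 0.00627), -0.44 for CELSR1 (0.0113) and -2.54 for DCHS1 (0.016), while 5.07% of all tested genes were called lower. FAT1 stood at -0.10 (edgeR adjusted p = 0.57), CELSR2 at -0.15 (0.29), FAT2 at -0.37 (0.401) and FAT4 at -0.36 (0.459). Length correction thus moved FAT1, FAT2, FAT4 and CELSR2 by more than 1.5 times. The correction removes any change that goes with length, whatever its source.

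**Figure D3:**
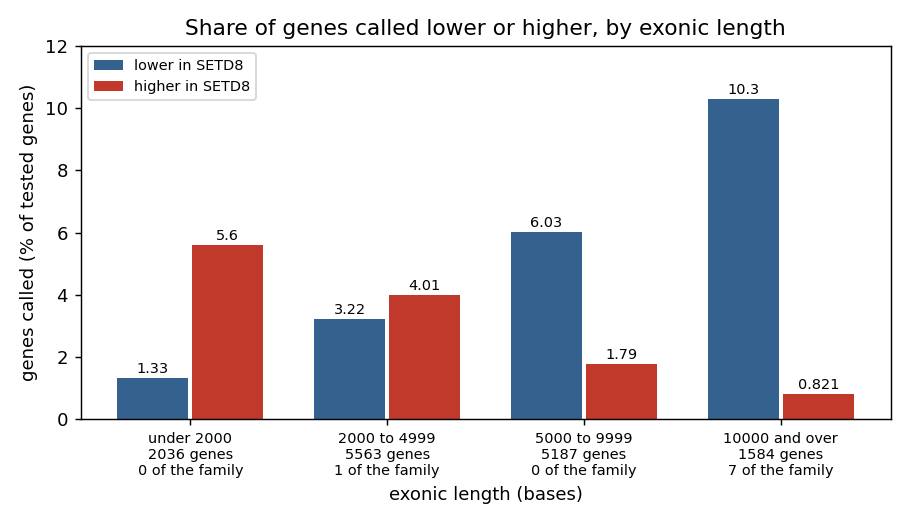
Share of tested genes called lower (left bar) or higher (right bar) in SETD8 libraries, by exonic length, in percent. The share called lower was 1.33% under 2000 bases and 10.3% at 10000 bases or more, the bin that holds the 7 tested cadherins.

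**Figure D4:**
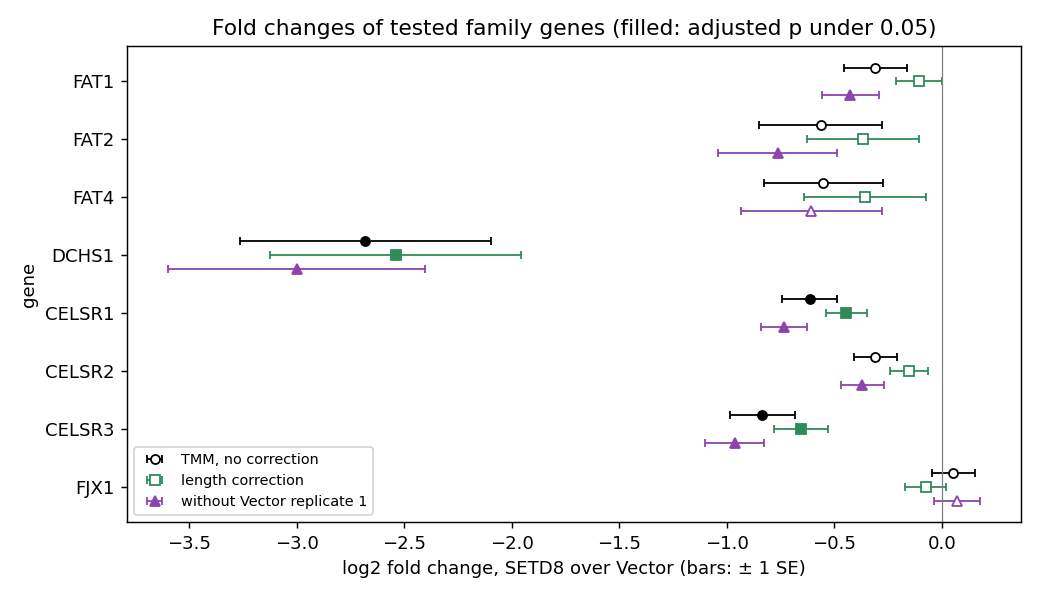
Log2 fold change (SETD8 over Vector, ± 1 SE) of each tested gene without correction, with length correction and without Vector replicate 1, with filled symbols for an adjusted p under 0.05. CELSR1, CELSR3 and DCHS1 (its direction fixed by the low-count filter) are filled in all 3, while FAT1, FAT2 and CELSR2 are filled only without Vector replicate 1. The other leave-outs are not drawn. Without SETD8 replicates 1, 2 and 3 they gave 0, 1 and 0 calls among the 8 genes, and without Vector replicates 2 and 3 they gave 0 and 3.

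Leaving out single libraries changed how many of the 8 genes were called. Without Vector replicate 1, 6 were lower (all but FAT4 and FJX1), when 11.8% of all tested genes were. Without Vector replicates 2 and 3 the numbers were 0 and 3, with 0.32% and 4.38% of all tested genes called lower. Without SETD8 replicates 1, 2 and 3 they were 0, 1 (CELSR3) and 0, with 0.0679%, 0.749% and 0.568% of all tested genes. In the 3 settings with 0 calls by edgeR, 4 or 5 of the 8 genes had an unadjusted p under 0.05, as did 18.7% to 18.8% of all tested genes. The 7 tested cadherins had log2 fold changes below 0 under each of these settings. All these counts include DCHS1, which could only be lower because of the low-count filter.

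The planar polarity genes that work beside the CELSR proteins were not called by edgeR. The core list held 12 genes, of which 11 were tested, with a median log2 fold change of -0.04. Of these, 0 were called by edgeR, DESeq2 or limma-voom, and 0 had an unadjusted edgeR p under 0.05. Over all tested genes edgeR called 7.83%, and 26.0% had an unadjusted edgeR p under 0.05. For a list of 11 genes, 0 calls lie near the 7.83%. VANGL1, a membrane partner of the CELSR complex, had 67.8, 69.2 and 68.3 CPM in SETD8 replicates 1, 2 and 3, against 80.7, 72.6 and 79.1 CPM in Vector replicates 1, 2 and 3 (log2 fold change -0.18, edgeR adjusted p = 0.205). The frizzled receptor gene FZD6 stood at 0.11 (edgeR adjusted p = 0.565), DVL2, which encodes a cytoplasmic transducer, at 0.11 (0.516) and PRICKLE2, a cytoplasmic core gene, at -0.79 on 0.273 to 1.15 CPM (0.403). Of 16 tested regulators and effectors, 0 were called by edgeR or limma-voom, 1 by DESeq2, and 5 had an unadjusted edgeR p under 0.05, as did 26.0% of all tested genes. Of the 16, 14 had log2 fold changes below 0, and the median was -0.25. Closest to the threshold was the receptor-like gene PTK7, with 128, 149 and 129 CPM in SETD8 libraries and 155, 177 and 173 CPM in Vector libraries (log2 fold change -0.32, edgeR adjusted p = 0.0535). The ubiquitin ligase genes SMURF1 (-0.24, edgeR adjusted p = 0.116) and SMURF2 (-0.23, 0.180) and the glypican gene GPC4 (-0.43, 0.137) did not pass.

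Among 12 tested partners of FAT and Dachsous proteins, 1 fell and 0 rose, with a median log2 fold change of -0.12. Of all tested genes, 4.75% were called lower. The partner gene that fell was AMOTL1, an angiomotin that binds YAP and, in mice, Fat4. AMOTL1 had 70.2, 73.5 and 83.1 CPM in SETD8 replicates 1, 2 and 3, against 104.8, 107.5 and 114.5 CPM in Vector replicates 1, 2 and 3, without overlap (log2 fold change of -0.53 with an SE of 0.09, for an edgeR adjusted p of 0.00815). The atrophin gene RERE (-0.32, edgeR adjusted p = 0.108), the actin regulator gene EVL (-0.39, 0.123) and SEPT9 (-0.16, 0.262) did not pass. With SETD8 replicate 1, SETD8 replicate 2 or Vector replicate 2 left out, 0 of the 12 partners were called. In these settings 0.0679%, 0.749% and 0.32% of all tested genes were called lower. DCHS2, the paralog of DCHS1, had 0 counts in every library.

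Of 10 tested genes among the other protocadherins and atypical cadherins, 1 fell, 0 rose and 9 were below 0. Their median log2 fold change was -0.54, and 4.75% of all tested genes were called lower. CDHR5, PCDH19, PCDH12 and CDHR2 were low, with group means of 0.481 to 1.24 CPM. With at least 1 CPM required in all 3 libraries of a group, 6 genes were tested, 1 fell and the median was -0.33. The protocadherin gene PCDH1 had 69.3, 73.9 and 66.1 CPM in SETD8 replicates 1, 2 and 3, against 96.5, 131.8 and 120.6 CPM in Vector replicates 1, 2 and 3 (log2 fold change of -0.74 with an SE of 0.11, for an edgeR adjusted p of 0.00521). The calsyntenin genes CLSTN1 (-0.24, edgeR adjusted p = 0.0874) and CLSTN3 (-0.41, 0.108) and the receptor kinase gene RET (-0.54, 0.142) did not pass.

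The CELSR genes are also adhesion G protein-coupled receptors, and 14 other genes of that class were tested. Of these, 12 passed the low-count filter through both groups. Among them ADGRB2 and ADGRA2 fell and 0 rose, with a median log2 fold change of -0.33. The share called lower over all tested genes was 4.75%. ADGRB2 had 9.43, 12.3 and 10.1 CPM in SETD8 libraries and 17.2, 23.1 and 26.3 CPM in Vector libraries (log2 fold change -1.06, edgeR adjusted p = 0.00583). ADGRA2, which in endothelium serves Wnt7 signalling, averaged 15.02 ± 0.90 CPM in SETD8 libraries and 23.4 ± 0.59 CPM in Vector libraries (SD, n = 3 each; log2 fold change -0.64, edgeR adjusted p = 0.00861). The other two passed the filter only through the group where they were high, so the filter fixed their direction. ADGRD2 averaged 0.304 CPM in SETD8 and 1.24 CPM in Vector libraries (log2 fold change -2.00, edgeR adjusted p = 0.0324). ADGRF4 averaged 0.965 CPM in SETD8 and 0.111 CPM in Vector libraries (3.08, edgeR adjusted p = 0.0124). Of the 3 tested secretory pathway kinases related to FJX1, 0 were called by edgeR, DESeq2 or limma-voom and 0 had an unadjusted edgeR p under 0.05. FAM20B stood at -0.21 (edgeR adjusted p = 0.238), FAM20C at -0.12 (0.479) and FAM198A at -0.25 (0.721). A list of 3 genes is too small to set against the 7.83% called over all tested genes.

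**Figure D5:**
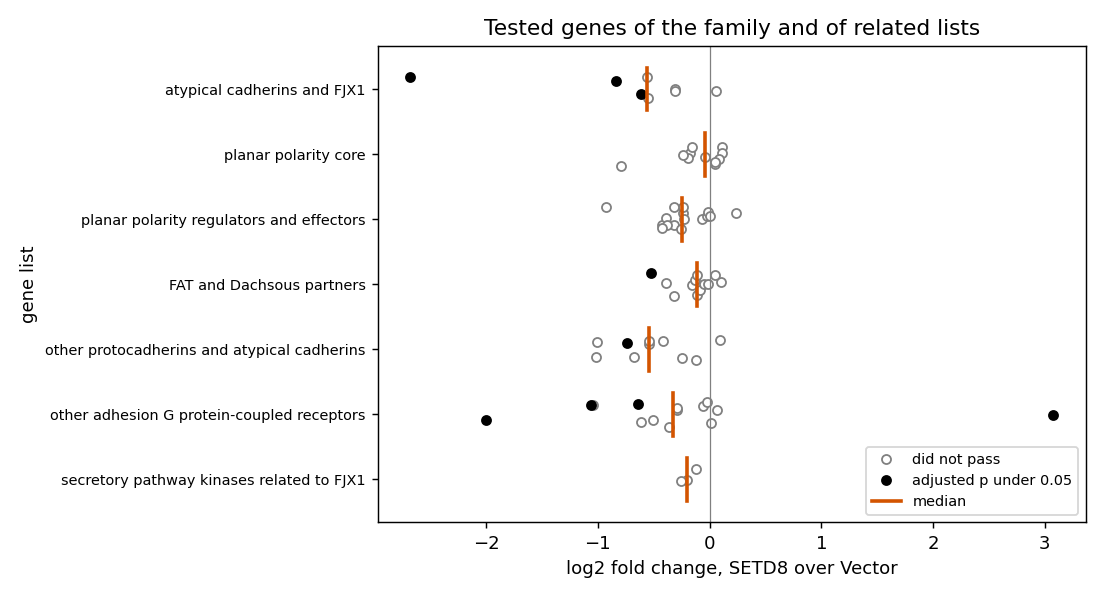
Log2 fold change (SETD8 over Vector) of each tested gene of the family and of 6 related lists, with filled points for an adjusted p under 0.05 and a bar at each median. The medians are -0.56 for the family, -0.04 for the planar polarity core and -0.54 for the other protocadherins and atypical cadherins. With at least 1 CPM required in all 3 libraries of a group, the first was -0.55 (7 genes) and the last -0.33 (6 genes).

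The genes whose profile over the 6 libraries was closest to each tested gene were found by the root mean square difference of mean-centred log2 CPM. For FAT1 they were HECTD4 (0.0475), SPG11 (0.0531) and KMT2A (0.055). For CELSR1 they were TRIO (0.0398), DOCK5 (0.0426) and AHNAK (0.048), and for CELSR3 they were LAMC3 (0.0569), GAA (0.0694) and ITGA7 (0.0706). NHLRC2, UHRF1BP1 and LANCL2 were closest to CELSR2 (0.0152 to 0.0254), USP24, CLEC16A and PRAG1 to FAT4 (0.0276 to 0.0439), and KMT2C, MBNL3 and VPS13A to FAT2 (0.0794 to 0.0953). DCHS1 had no close match among the genes compared, its nearest being SERPINA1 (0.458), XDH (0.467) and SERPINA5 (0.472). Those genes all had at least 5 CPM, while DCHS1 had 2 to 33 counts in a library, so counting error adds to its differences. LUC7L2, UBTD2 and SELENOS were closest to FJX1 (0.0165 to 0.0282).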

How the data were processed

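Poly(A)-selected RNA of 6 HCT116 samples was sequenced with a strand-marking kit, per the labels' protocols. The deposited table holds raw read counts, with 1 row for each of 58735 Ensembl IDs. Per the submitters' processing notes, GRCh38 or hg38 was the build, and the aligners and counters HTSeq, featureCounts, STAR and HISAT2 are listed without a role. Not given in the sources used here were the annotation, the tool that made the counts and its use of strand. Columns named NC were taken as Vector, the only other group, with the column number as the replicate. All 58735 IDs matched GENCODE 29, which gave symbols, positions, exonic lengths and transcript GC content. Promoters came from RefSeq. Protein sequences were not used here.

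The 9 genes, the 6 related lists and the tests were chosen with earlier results of these data known. Named genes were the 9, KMT5A, up to 4 per list by adjusted p plus all called, and the 3 most alike protein-coding genes of at least 5 CPM. The low-count filter (filterByExpr, 0.532 CPM in 3 libraries) left 14370 genes. After TMM scaling, the groups were compared in R 4.3.3 with limma 3.58.1 and edgeR 4.0.16, whose quasi-likelihood test was used two-sided, in its robust form and with no covariate. Adjustment was by Benjamini-Hochberg over every tested gene, with a threshold of 0.05. SEs are the log2 fold change over the root of F, and 95% intervals use the test's total degrees of freedom. Mean-centred values used a prior count of 2. Lists were described without a set test. The test was checked on simulated data. Alternatives were other scalings, filters and tools (DESeq2 1.42.0, limma-voom), a replicate block, KMT5A left out, length and GC corrections (lowess offsets, span 0.3) and each library left out. Totals were 17056672 to 20471843 counts, and no pair of libraries agreed within sampling noise (chi-square per degree of freedom at least 6.19). Figures used matplotlib 3.10.9.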

Additional observations from a re-analysis of the deposited data

How the results depend on the processing

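CELSR1 and CELSR3 kept their calls in all 11 alternatives that kept every library. DCHS1 was called in the 9 that gave it a value (below the stricter filter, no adjusted p with DESeq2). Apart from the setting with no low-count filter, the filter fixed the direction of DCHS1 in these 9. FAT4 and FJX1 were called in 0 of 17 alternatives. With no low-count filter FAT1 was called (log2 fold change -0.30, edgeR adjusted p = 0.0204). FJX1 turned to -0.075 with length correction and -0.078 with length correction and replicate block, without a call; its groups overlapped. The numbers in the titles did not pair the samples (same-numbered deviations correlated by 0.025, 0.008 and -0.064). The replicate block kept the 3 calls of the family and gave 1177 calls over all genes, against 1125, and 10.2% of long genes called lower.

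With no low-count filter, 2000 genes were called, 15.6% of genes of 10000 bases or more were lower, and 2 other protocadherins and atypical cadherins and 1 planar polarity regulator or effector were called. DESeq2 and GC correction also called 1 regulator or effector. The stricter filter left 2 called adhesion receptors. With length correction 5.11% of long genes were lower, and 4.48% with the block added; the correction was built to remove that trend. The count with edgeR at each library left out ranged from 11 to 3509 over all genes, 0 to 6 in the family, 0 to 28.8% of long genes lower, 0 to 2 for the partners of FAT and Dachsous, 0 to 4 for other protocadherins and atypical cadherins, 0 to 9 for adhesion receptors, 0 to 5 for planar polarity regulators and effectors, and 0 to 1 for secretory kinases. KMT5A ranged from 0.43 to 0.57 and lost its call in 4 of these 6. Per-gene counts of FAT2, FAT4 and DCHS1 limit their precision.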
